A study of Mus musculus with 18 samples.

Results

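The clustered protocadherin genes are 58 genes on mouse chromosome 18, from 36930184 to 37841873 on the mm10 build, a stretch of 912 kb. They were chosen by symbol in the GENCODE M21 gene set (Pcdha, Pcdhac, Pcdhb, Pcdhga, Pcdhgb or Pcdhgc followed by a number), with no measured value used, and make up 58 of 55450 annotated genes. The alpha family has 14 of them, the beta family 22 and the gamma family 22. GENCODE gives the symbol Pcdha11 to 2 genes, which are told apart here by identifier.

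Accessible chromatin was measured by ATAC-seq, in which a transposase inserts sequencing adapters into open DNA, in 18 libraries of bulk retina from WT mice. There were 6 groups of 3 libraries, 3 groups from mice aged 3 months (3mo) and 3 from mice aged 18 months (18mo). IOP retinas came from eyes held at an intraocular pressure of 30 mmHg for 1 hour. Contralateral retinas came from the opposite eyes, which were left without pressure, and untreated retinas from mice whose labels name no pressure. The labels give day 2 for the collection of IOP and contralateral retinas, and the study's text gives another day. The treatment text that all labels share also describes dasatinib, a kinase inhibitor, and its vehicle, but no label puts a library in a drug arm, so that whether any animal received either is not known. The shared preparation text describes crosslinking and immunoprecipitation beside ATAC-seq, whereas the methods of the study have fresh nuclei transposed. The labels call the libraries of a group replicates without saying whether each came from a separate animal, so that p-values measure the spread between these libraries.

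Clustered protocadherins are adhesion proteins of neurons. Each neuron uses a few of them, so that its surface carries a combination by which it tells its own branches from those of other cells, and in the retina the gamma family is known for the survival and self-avoidance of interneurons. In the alpha and gamma families every variable exon has a promoter of its own and is spliced to constant exons that the family shares, whereas the beta genes are single exons with no constant exons. The promoter chosen in a cell is brought to a distant enhancer by CTCF and cohesin, and most of the promoters not chosen carry DNA methylation. The C-type genes (Pcdhac1, Pcdhac2, Pcdhgc3, Pcdhgc4 and Pcdhgc5) stand at the ends of the alpha and gamma arrays and are regulated apart from the rest. In bulk tissue, a promoter open in few cells and one weakly open in many cannot be told apart.

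The lists held 36011 to 66160 peaks per library. Peaks are no shorter than the fragment length the caller assumed, and the shortest listed peak, a technical measure, split the libraries. It spanned 79 to 89 bp in all 6 untreated retinas, 114 to 122 bp in 5 others, called the short class here, and 148 to 157 bp in the last 7, called the long class. Untreated and contralateral controls are therefore also given apart. Rod markers were called throughout, and those of other retinal cells in part. All 18 libraries called 1 of 3 cone, 1 of 3 bipolar, 1 of 4 amacrine and horizontal, 2 of 4 ganglion and 1 of 3 Müller glia markers. The rest of these were called in some libraries, from Tfap2b in 5 to Gnat2 in 17. The rod markers Nrl, Gnat1, Pde6b and Sag had a promoter peak in all 18 libraries, while 0 of 3 liver, 0 of 2 lens and 0 of 3 microglia markers had one in any. Of the pigment epithelium markers, Best1 was called in 0 of 3 untreated and 3 of 3 contralateral libraries of 3mo and in 1 of 3 and 3 of 3 of 18mo, Rpe65 in 0 of the 18 libraries and Rgr in all of them. In the tests of calls described below, 0 of the 35 markers of all cell types had an unadjusted p-value under 0.05 for age or IOP. Markers called in all 18 libraries or in none could not reach such a value, so that this count is no measure of cell composition.

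A promoter was counted as called, or open, when a peak lay within 1000 bp of a transcript start of the gene. A promoter without a listed peak may be open below the caller's threshold, so that a missing call is no measured absence. At least 1 library called 33 of the 58 members (56.9%), compared with 66.3% of protein-coding genes. All 18 libraries called 6 members (10.3%), compared with 53.4% of protein-coding genes. The families differed in their numbers. In the gamma family 19 of 22 members were called in at least 1 library and 14 in 9 or more. In the alpha family the numbers were 8 and 2 of 14, and in the beta family 6 and 0 of 22. Of 21951 protein-coding genes, 13159 were called in 9 or more libraries, a share near that of the gamma family.

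**Figure D1:**
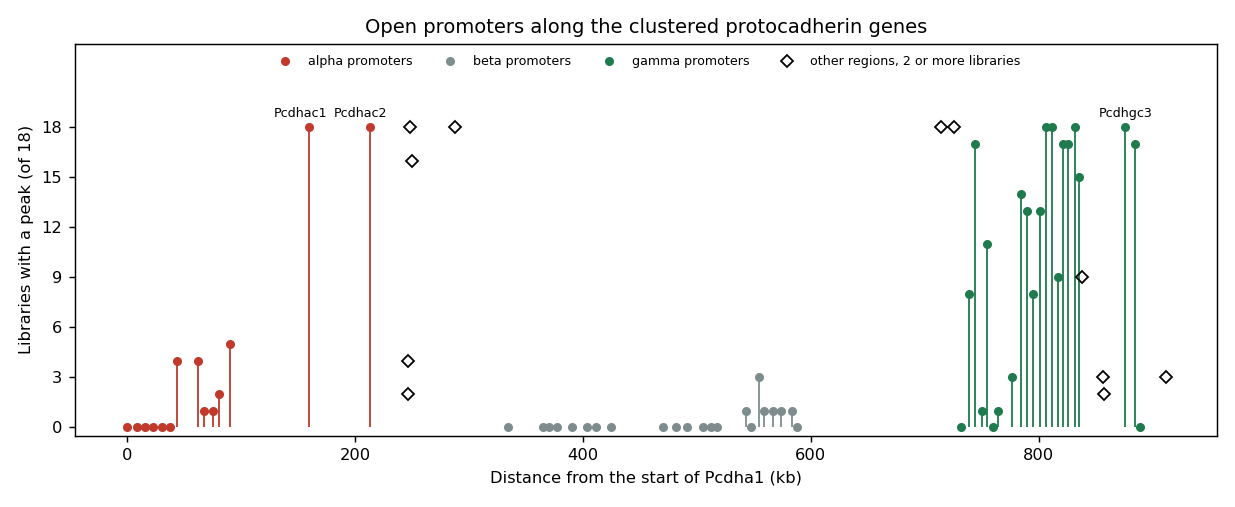
Number of libraries (of 18) with a peak at each of the 58 promoters, against the distance of the transcript start from the start of Pcdha1 in kb. Points and stems are promoters coloured by family, and open diamonds are the regions of 2 or more libraries that touch no member promoter. The alpha promoters called in 18 libraries are those of Pcdhac1 and Pcdhac2, the beta promoters are called in 0 to 3 libraries, and the gamma array holds most of the open promoters.

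The 6 members called in all 18 libraries were Pcdhac1, Pcdhac2, Pcdhgc3, Pcdhga9, Pcdhgb6 and Pcdhgb8. They thus comprised 3 of the 5 C-type genes and 3 of the 19 alternate gamma genes, and 0 of the 12 alternate alpha genes. How high a peak stood was read from its fold enrichment, which the authors' peak caller gives as summit pileup divided by local background within the same library. Its median over the 18 libraries was 12.5 for Pcdhgc3 (range 8.98 to 19.4), 11.5 for Pcdhac1 (7.69 to 17.4), 9.37 for Pcdhac2 (5.68 to 13.8), 9.19 for Pcdhgb6 (7.50 to 14.4), 8.04 for Pcdhga9 (4.34 to 12.6) and 5.08 for Pcdhgb8 (3.83 to 8.25). Among the 14630 promoters of all genes called in every library, the median of Pcdhgc3 stood at percentile 62.1, that of Pcdhac1 at 52.7, that of Pcdhac2 at 32.5, that of Pcdhgb6 at 31.0, that of Pcdhga9 at 21.0 and that of Pcdhgb8 at 2.97. Pcdhgc3 and Pcdhac1 thus stood above the median of these promoters, and the other 4 below it.

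The C-type genes were not alike. Pcdhgc4 was called in 17 libraries, at a median fold enrichment of 5.10, and was missed in 1 IOP library of 18mo. Pcdhgc5, the last promoter of the gamma array, was called in 0 of the 18 libraries. The peaks of Pcdhac2 and Pcdhgc3 were wide, with medians of 1118 and 1145 bp, compared with 607 bp at Pcdhac1 and 539 bp at Pcdhgc4. The summits lay within 145 bp of the start in every library at Pcdhac1, Pcdhac2, Pcdhgc3 and Pcdhgc4.

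Among the alternate gamma promoters, most of the 7 nearest to the C-type genes were called in most libraries, but position did not order the calls. From Pcdhga9 to Pcdhga12, the 7 last alternate promoters, Pcdhga9, Pcdhgb6 and Pcdhgb8 were called in 18 libraries, Pcdhgb7 and Pcdhga11 in 17, Pcdhga12 in 15 and Pcdhga10 in 9. Before them, Pcdhga3 was called in 17 libraries, Pcdhga7 in 14, Pcdhgb4 and Pcdhgb5 in 13, Pcdhga4 in 11, Pcdhga2 and Pcdhga8 in 8, and Pcdhga6 in 3. Pcdhgb1 and Pcdhga5 were each called in 1 contralateral library of 18mo, and Pcdhga1 and Pcdhgb2 in 0 libraries.

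The alternate alpha promoters had few calls, most of them at 18mo. Pcdha12, which stands nearest to Pcdhac1, was called in 5 libraries: 1 untreated, 3 contralateral and 1 IOP library of 18mo. Pcdha7 was called in 4 libraries, 1 contralateral library of 3mo and 1 untreated and 2 contralateral libraries of 18mo. Pcdha8 was called in 2 untreated, 1 contralateral and 1 IOP library of 18mo. The 2 genes named Pcdha11 were called in 1 untreated library of 18mo (ENSMUSG00000007440) and in 1 untreated and 1 IOP library of 18mo (ENSMUSG00000102206). Pcdha9 was called in 1 IOP library of 3mo, and Pcdha1 to Pcdha6 in 0 libraries.

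The beta family had few calls. Pcdhb17 was called in 3 libraries, 1 IOP library of 3mo and 2 contralateral libraries of 18mo, at a fold enrichment of 3.73 to 4.21. Pcdhb15, Pcdhb18 and Pcdhb20 were each called only in 3mo untreated replicate 6, and Pcdhb19 and Pcdhb21 only in 18mo IOP replicate 2. Those 2 libraries called 3 and 2 beta promoters, where the other 16 called 0 or 1. The other 16 beta genes (Pcdhb1 to Pcdhb14, Pcdhb16 and Pcdhb22) were called in 0 libraries.

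**Figure D2:**
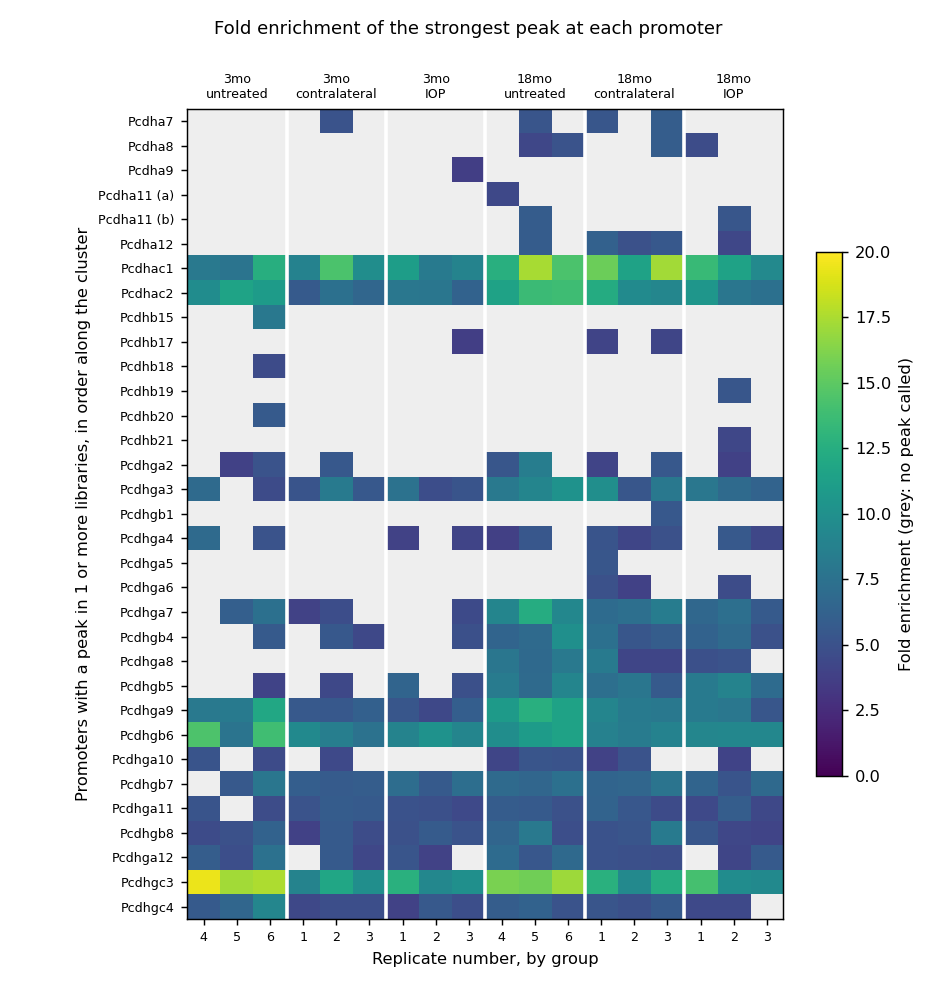
Fold enrichment of the strongest peak at the 33 promoters called in 1 or more libraries (rows, in order along the cluster) in each of the 18 libraries (columns, by group and replicate). Grey marks no called peak. Pcdha11 (a) is ENSMUSG00000007440 and Pcdha11 (b) ENSMUSG00000102206. Pcdhac1, Pcdhac2 and Pcdhgc3 stand out in every group, Pcdhga8 is filled at 18mo only, and the alternate alpha rows are filled mainly at 18mo.

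Properties of the promoter sequences that the choice of members did not use differed between the families. Counted within 500 bp of the start on the RefSeq sequence of GRCm38 (mm10), the median number of CpG dinucleotides per 100 bp was 3.60 over the alpha promoters (range 3.10 to 5.49), 1.5 over the beta promoters (0.599 to 3.20) and 3.40 over the gamma promoters (1.20 to 6.79), compared with 4.30 over 21938 protein-coding genes. Pcdhgc3 (6.79), Pcdhac2 (5.49) and Pcdhac1 (4.40) were above that median and always open. Pcdhgc5, with 1.60, was far below it and called in 0 libraries. The CpG density did not order the rest. Pcdhga12, with 1.20, was called in 15 libraries, while Pcdha1 to Pcdha6, with 3.30 to 3.80, were called in 0. The median was 3.95 over the 16 members called in 9 or more libraries, 3.00 over the 17 called in 1 to 8 and 1.90 over the 25 called in 0.

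**Figure D3:**
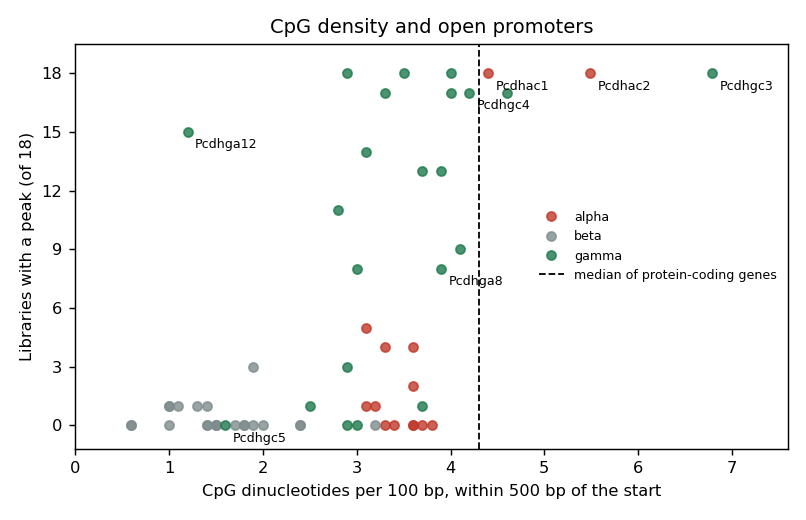
CpG dinucleotides per 100 bp within 500 bp of the transcript start, against the number of libraries (of 18) with a peak, for the 58 members coloured by family. The dashed line is the median of protein-coding genes, 4.30. Beta promoters are poor in CpG and rarely called, and alpha and gamma promoters of the same density differ widely in their calls.

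A match to the core motif of CTCF, the insulator protein that binds in pairs at many alpha promoters, was found on either strand within 1000 bp of the start in 6 of the 58 members, compared with 1.67% of protein-coding genes. All 6 were alternate alpha genes (Pcdha1, Pcdha4, Pcdha6, Pcdha7, Pcdha8 and Pcdha12), with the match 543 to 587 bp downstream of the start, inside the variable exon. In Pcdha7 and Pcdha8, the few peaks sat on this match and not on the start. All 4 peaks of Pcdha7 held the match, with summits 27 to 36 bp from it, and all 4 peaks of Pcdha8 held it, with summits 5 to 68 bp from it. At Pcdha12 3 of 7 peaks held the match and the other 4 lay nearer to the start. Pcdha1, Pcdha4 and Pcdha6 had a match and no peak. The motif was matched as exact letters, and a promoter without a match is not shown to lack a site.

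Near-identical copies could affect the calls, since how reads that fit several places were handled is not given in the sources used here. Within 1000 bp of the start, the share of 32-base stretches that occur once in the genome was 73.7% to 92.6% in the alternate alpha promoters called in 1 to 8 libraries and 77.4% to 91.6% in those called in 0. It was 81.3% to 100% in the gamma promoters called in 9 or more libraries and 97.7% to 100% in the 3 called in 0. In the beta family its median was 100% over the 6 promoters called in 1 to 8 libraries and 91.3% over the 16 called in 0. Over all members the medians were 97.3% for 9 or more libraries, 97.7% for 1 to 8 and 90.1% for 0. In the beta family and over all members the median was thus lowest for the uncalled promoters. The part of this in the calls was not tested.

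The first comparison asked how the promoters differ between the control retinas of 3 and 18 months. More members were called at 18mo. The number of member promoters called per library was 12, 11 and 20 in the untreated 3mo libraries and 11, 17 and 12 in the contralateral ones. At 18mo it was 19, 22 and 17 in the untreated and 23, 19 and 22 in the contralateral libraries. The means were 13.8 ± 3.76 at 3mo and 20.3 ± 2.34 at 18mo (SD, n = 6 each), a difference of 6.50 promoters. The groups overlapped through 3mo untreated replicate 6 and 3mo contralateral replicate 2, whose lists of 66114 and 66160 peaks are the 2 longest of the 18. Over all genes the same libraries called 17066 ± 938 and 17277 ± 684 promoters (SD, n = 6 each).

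The difference was present in each kind of control. It was 14.3 ± 4.93 against 19.3 ± 2.52 in untreated and 13.3 ± 3.21 against 21.3 ± 2.08 in contralateral retinas (SD, n = 3 each). Within the long class, the 3mo contralateral libraries called 11 and 12 members and the 18mo one 19. Within the short class, the 3mo one called 17 and the 18mo ones 23 and 22. When every library kept its 36011 strongest peaks, the 3mo controls called 8 to 10 members and the 18mo controls 10 to 15 (means 9.0 ± 0.894 and 13.5 ± 1.97, SD, n = 6 each). The difference lay in the alpha and gamma families. Gamma promoters numbered 11.2 ± 2.64 per library at 3mo and 16.0 ± 1.26 at 18mo, alpha promoters 2.17 ± 0.408 and 4.00 ± 1.26, and beta promoters 0.500 ± 1.22 and 0.333 ± 0.516 (SD, n = 6 each). Since the list of members was chosen, these sums are given without a test.

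**Figure D4:**
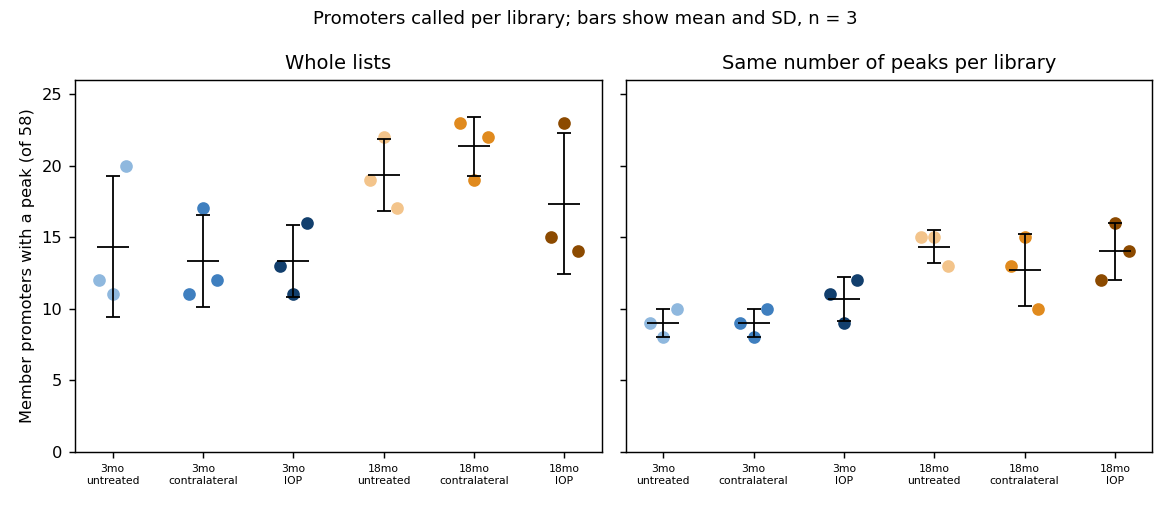
Number of the 58 member promoters with a peak in each library (points), by group, with the mean and SD of 3 libraries, from the whole lists (left) and with 36011 peaks kept in every library (right). The 18mo control libraries hold 17 to 23 called members and the 3mo ones 11 to 20 on the left, and 10 to 15 against 8 to 10 on the right.

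Of the 27 members called in some but not all libraries, 20 (74.1%) were called in more control libraries at 18mo than at 3mo, 3 in fewer and 4 in as many. Over the 5880 promoters of all genes called in 1 to 17 libraries, 41.3% were called in more and 30.9% in fewer. With 36011 peaks in every library, the direction over all genes turned, to 28.3% in more and 44.6% in fewer. The members did not turn with it: 12 of 17 were called in more libraries at 18mo and 2 in fewer. The 3 members with fewer calls at 18mo were Pcdhb15, Pcdhb18 and Pcdhb20, which 1 library called.

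Per promoter, age was tested by Fisher's exact test (two-sided) on the calls of 6 libraries against 6, with the Benjamini-Hochberg adjustment over the 1080 promoters of all genes where the p-value can fall under 0.05. None of the members passed, nor did any of the 1080 promoters (0% after adjustment). The smallest p-value that 6 libraries against 6 allow is 0.00216 (Fisher's exact test). Over 1080 promoters, a single one at that value could not pass without many others at it. At an unadjusted p-value under 0.05, 1 of the 3 members tested (Pcdhga2, Pcdhga4 and Pcdhga8) had more calls at 18mo and 0 had more at 3mo, compared with 2.59% and 0.278% of all promoters tested.

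That member was Pcdhga8. Its promoter was called in 0 of 6 control libraries of 3mo and in 6 of 6 of 18mo (p = 0.00216, the smallest the design allows, adjusted p = 0.390, Fisher's exact test). The fold enrichment at 18mo was 7.87, 6.84 and 8.05 in the untreated libraries and 8.16, 4.21 and 4.20 in the contralateral ones. After IOP the promoter was called in 0 of 3 libraries of 3mo and in 2 of 3 of 18mo, at 4.89 and 5.10. The ages thus did not overlap in the control libraries, and at 18mo the peak was higher in untreated than in 2 of the 3 contralateral libraries. Of the 20510 promoters called in at least 1 library, 6 (0.0293%) had this pattern. With 36011 peaks in every library, Pcdhga8 was called in 0 of 6 and 4 of 6 control libraries (p = 0.0606, Fisher's exact test). With that setting Pcdhgb4 and Pcdhgb5 were each called in 0 of 6 at 3mo and 5 of 6 at 18mo (p = 0.0152, adjusted p = 0.371, Fisher's exact test). From the whole lists, Pcdhgb4 was called in 3 and 6 and Pcdhgb5 in 2 and 6 of the 6 control libraries.

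Pcdhga8 stands among promoters with fewer calls at 3mo. In the order of the array, Pcdhga7, Pcdhgb4, Pcdhga8 and Pcdhgb5 were each called in 6 of 6 control libraries of 18mo and in 4, 3, 0 and 2 of 6 of 3mo. In the untreated libraries of 3mo the fold enrichment of Pcdhga7 was 6.04 and 7.40 in replicates 5 and 6, with no call in replicate 4. In the contralateral libraries of 3mo it was 3.97 and 4.73 in replicates 1 and 2, with no call in replicate 3. At 18mo it was 9.13, 12.4 and 9.25 in the untreated and 7.0, 7.27 and 8.42 in the contralateral libraries. Within each kind of control all libraries of 18mo were thus above all called libraries of 3mo. For Pcdhgb5 the 2 values at 3mo were 3.99 and 4.33, and the 6 values at 18mo ran from 5.70 to 9.14.

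Within the contralateral controls alone, 3 of the 33 members called in any library (Pcdha12, Pcdhga4 and Pcdhga8) were called in 3 of 3 libraries of 18mo and 0 of 3 of 3mo, compared with 0.249% of all 20510 promoters. Within the untreated controls it was Pcdhga8 alone, compared with 0.215%. No member had the reverse pattern in either kind of control, compared with 0.0439% and 0.273% of all promoters. With 3 libraries against 3, the exact test cannot give a p-value below 0.1.

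The height of the peaks could be tested for promoters called in all 18 libraries. The log2 fold enrichment was quantile normalised and compared with limma, with Benjamini-Hochberg adjustment over 14630 promoters of all genes. None of the 6 members passed for age, compared with 0.109% of all promoters higher and 0.0547% lower at 18mo. At an unadjusted p-value under 0.05, 4 of the 6 were higher at 18mo and 0 lower, compared with 4.57% and 4.24% of all promoters. The same 4 had a difference above 0, compared with 46.6% of all promoters. The median difference was 0.34 over the 6 members and −0.01 over all promoters, on the log2 scale.

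The 2 C-type alpha promoters had the smallest p-values. For Pcdhac2, the fold enrichment in the untreated libraries was 9.72, 11.6 and 11 at 3mo and 11.5, 13.6 and 13.8 at 18mo, and in the contralateral libraries 5.68, 7.35 and 6.63 at 3mo and 12.3, 9.58 and 9.16 at 18mo. The contralateral groups did not overlap, and the untreated groups overlapped by 1 library on each side. After normalisation the difference of Pcdhac2 was 0.42 ± 0.09 on the log2 scale (SE, limma adjusted p = 0.0596), with 0.30 in untreated and 0.55 in contralateral controls.

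For Pcdhac1, the untreated libraries gave 8.09, 7.69 and 12.5 at 3mo and 12.6, 17.4 and 14.3 at 18mo. The contralateral libraries gave 8.83, 14.3 and 9.84 at 3mo and 15.5, 11.5 and 17.2 at 18mo, with 3mo replicate 2 above 18mo replicate 2. The normalised difference of Pcdhac1 was 0.50 ± 0.11 on the log2 scale (SE, limma adjusted p = 0.111), with 0.68 in untreated and 0.31 in contralateral controls. Leaving out each of the 18 libraries in turn brought 1 of these 2 promoters past the threshold in 4 cases. Without 3mo untreated replicate 5 the adjusted p-value of Pcdhac2 was 0.0467, and without 18mo contralateral replicate 3 it was 0.0353. Without 3mo untreated replicate 6 that of Pcdhac1 was 0.0173, and without 3mo contralateral replicate 2 it was 0.0433 (limma).

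Pcdhga9 differed by 0.40 ± 0.10 (SE, limma adjusted p = 0.191) and Pcdhgb8 by 0.29 ± 0.12 (SE, limma adjusted p = 0.532) in the same direction on the log2 scale. Pcdhgb6 and Pcdhgc3 differed by −0.08 ± 0.11 and −0.04 ± 0.07 (SE, limma adjusted p = 0.889 and 0.903). For Pcdhgc3 the fold enrichment was 19.4, 17.2 and 17.5 in the untreated and 8.98, 11.8 and 9.89 in the contralateral libraries of 3mo, and 16.0, 15.7 and 17.1 and 12.7, 9.38 and 12.4 at 18mo. The kind of control thus parted these values more than age did. After normalisation the difference of Pcdhgc3 between the ages was −0.15 in untreated and 0.06 in contralateral controls.

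**Figure D5:**
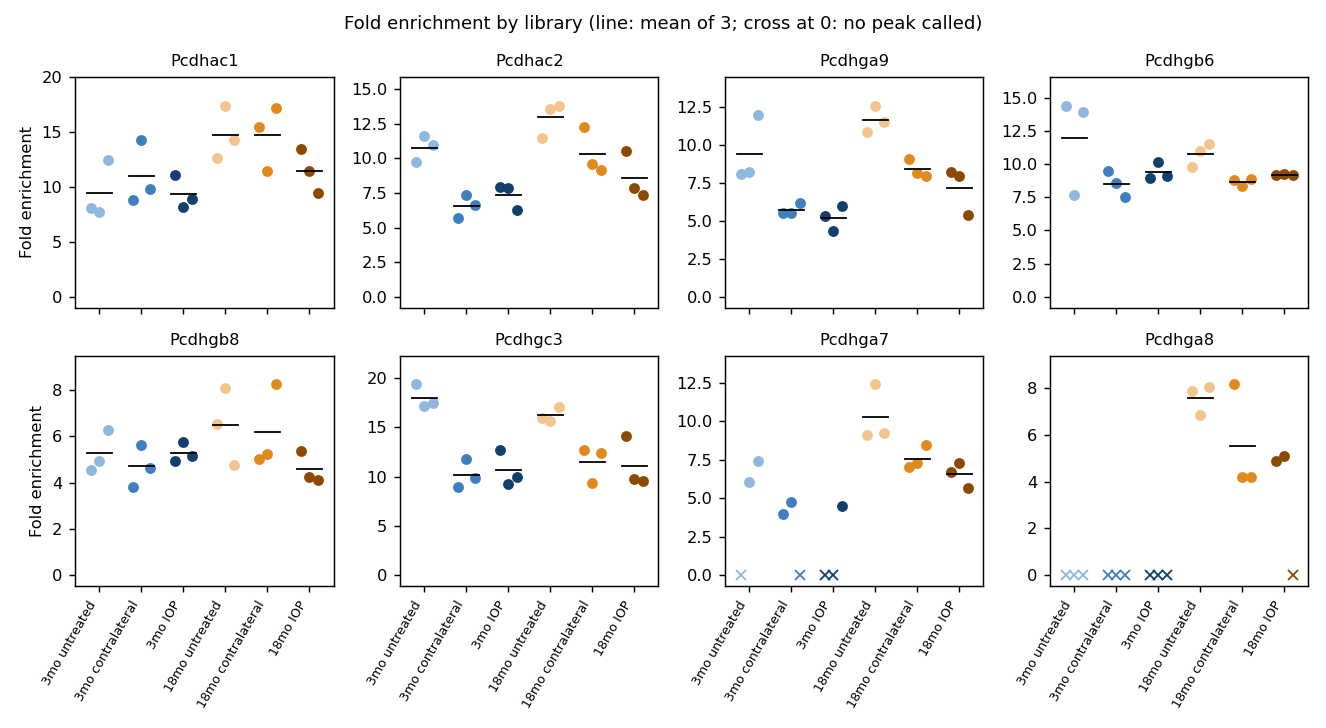
Fold enrichment of the strongest promoter peak in each library, by group, for the 6 members called in all 18 libraries and for Pcdhga7 and Pcdhga8. Points are libraries, lines are means of 3, and crosses at 0 mark libraries with no called peak. Pcdhga8 has points at 18mo only, and Pcdhgc3 is higher in untreated than in contralateral retinas at both ages.

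The second comparison asked how 1 hour of raised pressure changed the promoters in young and in old retinas. The 3mo IOP libraries called 13, 11 and 16 members and the contralateral ones 11, 17 and 12, with means of 13.3 ± 2.52 and 13.3 ± 3.21 (SD, n = 3 each). At 18mo they called 15, 23 and 14 against 23, 19 and 22, with means of 17.3 ± 4.93 and 21.3 ± 2.08 (SD, n = 3 each). The groups overlapped at both ages. The lists differed too, with 36011 to 48723 peaks in the IOP libraries of 18mo and 51166 to 60755 in the contralateral ones, and the part of this in the result was not tested. 18mo IOP replicates 1 and 2, with 48688 and 48723 peaks, called 15 and 23 members. With 36011 peaks in every library the direction turned, to 14.0 ± 2.00 after IOP and 12.7 ± 2.52 in contralateral retinas (SD, n = 3 each).

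At 18mo, 12 of the 27 members with variable calls (44.4%) were called in fewer IOP than contralateral libraries and 3 (11.1%) in more, near the 47.3% and 9.17% of all such promoters. At 3mo, 4 were called in more and 5 in fewer libraries (14.8% and 18.5%), compared with 23.3% and 24.0% of all. Called in 3 of 3 libraries of one side and 0 of 3 of the other were 0 of the 33 members at either age, compared with 0.0439% of all promoters gained and 0.0731% lost at 3mo, and 0.0536% gained and 0.463% lost at 18mo. In the exact test stratified by age (two-sided), the calls of no member were distributed so that a p-value under 0.05 could be reached, and the smallest p-value of a member was 0.200. Of the 520 promoters of all genes that could be tested, 0 passed the adjustment (0%), and 0.577% were called more and 1.73% less often after IOP at an unadjusted p-value under 0.05. Here too a single promoter could not pass the adjustment without many others.

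Nor did the height of a member promoter pass the limma test after IOP. The 6 always-called members had adjusted p-values of 1.00 at 3mo and of 0.619 or more at 18mo, compared with 0% of all promoters called higher or lower at 3mo, and 0% higher and 0.00684% lower at 18mo. At an unadjusted p-value under 0.05, 0 of the 6 were higher or lower in either, compared with 1.3% of all promoters higher and 1.39% lower at 3mo, and 4.57% and 4.62% at 18mo. The 4 smallest p-values at 3mo belonged to Pcdhac2 (0.20 ± 0.12), Pcdhgb8 (0.22 ± 0.18), Pcdhgb6 (0.19 ± 0.16) and Pcdhac1 (−0.16 ± 0.16), on the log2 scale (SE). At 18mo they belonged to Pcdhgb8 (−0.26 ± 0.18), Pcdhac1 (−0.22 ± 0.16), Pcdhgb6 (0.21 ± 0.16) and Pcdhac2 (−0.15 ± 0.12). The difference of the IOP effect between the ages was −0.35 ± 0.17 for Pcdhac2 and −0.49 ± 0.25 for Pcdhgb8 (SE, limma adjusted p = 0.900 for both), −0.06 ± 0.22 for Pcdhac1 and −0.04 ± 0.14 for Pcdhgc3. None of the 6 had an unadjusted p-value under 0.05 for this difference, compared with 1.70% of all promoters above 0 and 2.47% below it. For Pcdhac2 the IOP libraries read 7.95, 7.85 and 6.26 at 3mo and 10.5, 7.85 and 7.38 at 18mo in fold enrichment, which overlapped the contralateral libraries of the same age.

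Between the first and the last gene, the merged peaks of all libraries made 58 regions, of which 37 were called in 2 or more libraries, out of 73567 such regions in the genome. Of the 37, 26 touched a member promoter, 4 the promoter of another gene, 4 lay in introns and 3 in exons. Of the 10 called in all 18 libraries, 6 were the member promoters named above and 4 lay away from them.

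The first of these 4 regions lay from 37178265 to 37178998 on chromosome 18, between Pcdhac2 and the alpha constant exons and within 1000 bp of a start of Gm10544. Its median fold enrichment was 13.1 (range 8.83 to 17.4). The second lay from 37217207 to 37218485, past the alpha constant exons and before Pcdhb1, in no member gene, inside introns of the long gene models Gm37013, Gm37388 and Gm42416. Its median was 16.3 (12.5 to 19.2). Enhancers of the alpha family are known between the last alpha promoter and the constant exons and downstream of these exons. Whether these 2 regions act as such was not tested.

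The other 2 lay between the beta and gamma arrays, at the promoters of Taf7, a subunit of the general transcription factor TFIID (37643827 to 37644682, median fold enrichment 25.6), and of the noncoding gene 3222401L13Rik (37655482 to 37656259, median 14.4). The region from 37180117 to 37180844 in the alpha intron was called in 16 libraries at a median of 3.83. These 5 are all the regions away from member promoters called in more than 9 libraries. The region at Gm26672, from 37768091 to 37768383, was called in 9, at a median of 4.62. A match to the CTCF core within 250 bp of the summit was found in 2 of the 37 regions, those at Pcdha7 and Pcdha8, compared with 6.67% of 73449 consensus regions, and so in none of the 5.

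Of these 5 regions, 4 were called in every library, so that their calls hold no comparison. In fold enrichment the region of 37217207 read 16.1 ± 0.349 in untreated, 15.6 ± 3.37 in contralateral and 14.9 ± 3.73 in IOP retinas of 3mo, and 17.3 ± 0.744, 16.5 ± 2.81 and 15.1 ± 3.18 at 18mo (SD, n = 3 each). The region of 37178265 read 16.1 ± 1.53, 11.2 ± 1.93 and 11.2 ± 1.45 at 3mo and 13.9 ± 0.154, 11.3 ± 2.34 and 12.2 ± 1.95 at 18mo in the same order (SD, n = 3 each).

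Over the cluster's 37 regions, 0 passed the adjusted test of calls for age, where 5 could be tested, and 0 that for IOP, where 1 could be. Over all regions, 0 of 9868 (0%) and 0 of 5572 (0%) passed. As with the promoters, a single region could not pass the adjustment without many others at the smallest p-value. At an unadjusted p-value under 0.05, 1 region was called more often at 18mo, that of the Pcdhga8 promoter (37725581 to 37726197, p = 0.00216, Fisher's exact test), compared with 3.19% of all regions tested, and 0 more often at 3mo, compared with 0.385%. It was the single region of the cluster called in 6 of 6 controls of 18mo and 0 of 6 of 3mo, compared with 0.0788% of all 73567 regions, and 0 had the reverse pattern, compared with 0.00544%. In contralateral controls alone, the regions at Pcdha12, Pcdhga4 and Pcdhga8 were called in 3 of 3 and 0 of 3 libraries, compared with 1.14% of all regions, and in untreated controls the one at Pcdhga8, compared with 0.892%. The reverse pattern was found in 0 of the 37, compared with 0.122% and 0.776% of all. For IOP 0 of the cluster's regions had an unadjusted p-value under 0.05, compared with 1.62% of all regions tested called more and 3.43% called less often after IOP. Gained or lost in 3 of 3 libraries against 0 of 3 were 0 of the 37 at either age, compared with 0.217% gained and 0.241% lost of all regions at 3mo, and 0.239% and 2.23% at 18mo.

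Protocadherins outside the cluster and the genes that act on it were read in the same way. Of 15 non-clustered protocadherin and Celsr genes, 9 were called in all 18 libraries, 1 (Pcdh12) in 0 and 5 in some. None of the 9 passed the limma test for age (5 higher and 4 lower at 18mo, median difference 0.00 on the log2 scale) or IOP. The smallest p-values for age were those of Pcdh18 (−0.18 ± 0.12), Pcdh9 (0.09 ± 0.08) and Pcdh15 (0.08 ± 0.09) on the log2 scale (SE, limma adjusted p = 0.739, 0.808 and 0.860).

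All 18 genes that act on the promoters of the cluster had a promoter peak in all 18 libraries, among them Ctcf, the cohesin subunits Rad21, Smc1a and Smc3, the loader Nipbl, the DNA methyltransferases and Smchd1, which represses clustered genes. In none of them did the height pass the limma test. For age, Smc1a (−0.13 ± 0.06), Dnmt1 (0.09 ± 0.05) and Mau2 (−0.08 ± 0.05) had the smallest p-values (log2 scale, SE, limma adjusted p = 0.549, 0.663 and 0.702). For IOP at 18mo they were Zfp143 (0.17 ± 0.07), Stag1 (0.22 ± 0.09) and Dnmt1 (−0.17 ± 0.08), with adjusted p-values of 0.512, 0.514 and 0.531 (SE, limma).

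Of 10 genes that act with the proteins in the cell (kinases, the WAVE complex and others), 9 were called in all libraries and Ptk2b, the kinase Pyk2, in 1. None of the 9 passed. For IOP at 3mo Cyfip2, a subunit of the WAVE complex that the protocadherins bind, differed by 0.27 ± 0.09 on the log2 scale (SE, limma adjusted p = 1.00). For age Fyn, a kinase, differed by 0.07 ± 0.06 and Wasf1, a WAVE subunit, by −0.06 ± 0.05 (log2 scale, SE, limma adjusted p = 0.795 and 0.814).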

How the data were processed

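ATAC-seq peak lists of 18 bulk retina libraries in 6 groups of 3 were analysed. The members and all gene lists were chosen with earlier results of these data known. Per the study's text, the authors called peaks with MACS2 at a q-value of at most 0.05. The submitters' processing notes name the build mm10 and STAR 2.7.8a, HOMER, edgeR and bedtools 2.29.2, and 1 list was deposited for each library. Other settings, and how repeated or duplicate reads were handled, are not given in the sources used here. In the deposited narrowPeak lists, each peak has a position, a score scaled from its q-value by the authors' caller, a fold enrichment at the summit, which is a linear ratio, and −log10 p-values and −log10 q-values; the largest deposited q-value was under 0.05 in every list. The lists give no read counts and the depth that each library reached is unknown, so that the number of peaks per library and the spread between libraries measured precision. The lists hold 0 columns of other series.

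Promoters of GENCODE M21 genes were windows of 1000 bp on either side of each transcript start, and a peak overlapping by 1 bp made a call. Consensus regions were merged peaks of 2 or more libraries. Calls were tested with Fisher's exact test (age) or an exact conditional test stratified by age (IOP), both two-sided, and adjusted over the features where the p-value could fall under 0.05. Where a promoter had several peaks, the strongest was used. Levels were log2 of the deposited fold enrichment, with no pseudocount, quantile normalised and fitted with limma 3.58.1 in R 4.3.3 over 6 group means. The fits were first tested on simulated data with known changes. Whether changes of the size seen at the members would pass the adjustment was not tested, so that a missed threshold is no sign of equal heights. Exact tests used Python 3.11.15 with scipy 1.17.1. Same-numbered contralateral and IOP libraries correlated at −0.426, −0.336 and 0.231 at 3mo and at 0.434, 0.197 and −0.255 at 18mo in their deviations from the group means. All such pairs of an age, same-numbered or not, correlated positively within a class of the shortest peak and negatively between classes. The values therefore cannot tell whether the numbers pair libraries, and the main tests took no pairs.

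Named were the C-type genes, all members called in 0 to 17 libraries, the members with the highest and lowest median fold enrichment, the 4 smallest p-values of each level test, the 5 strongest regions away from member promoters called in most libraries, and the 3 smallest p-values of each other list. Alternatives were windows of 500 and 2000 bp, the summit in the window, q of 0.001, 36011 peaks in every library, 50% coverage of a region, strata or a covariate, other normalisations, promoters called in at least 9 libraries, a replicate block and each library left out in turn. DNA sequences of the promoters are not shown, and some genes of the other lists are not reported here.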

Additional observations from a re-analysis of the deposited data

Results flagged for a closer look

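Of 22 checks for a library that stands apart within a control group of 6 (the gap to the nearest library over the whole range, against the 95% critical value of Dixon), 0 stood out, where chance gives about 1 in 20.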

How the results depend on the processing

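The fold enrichment carries no depth, calls depend on the length of each list, and the height of peaks missing in some libraries is not measured. No adjusted call of a member promoter or region was made in any alternative. For IOP this outcome was fixed in several of them, such as the other windows and q of 0.001, where no member promoter could be tested. With promoters called in at least 9 libraries, the number past the level test for age was 1 (Pcdhga7, adjusted p = 0.0248, limma), but that promoter was called in all 9 libraries of 18mo and in 5 of 9 of 3mo, so that it met the minimum through the age where it was high and the value is no support. It was 0 to 1 when each library was left out, with the cases named above (adjusted p = 0.0173 to 0.0467, limma); the cause was not tested. With 36011 peaks in every library, the difference in members called at 18mo after IOP turned from −4.00 to 1.33, and the p-value of Pcdhga8 rose to 0.0606 (Fisher's exact test) with fewer peaks kept. The difference in members called with age was 5.93 to 7.73 when each library was left out, that for IOP −1.33 to 1.83 at 3mo and −6.83 to −2.33 at 18mo.

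By the percentile of −log10 q among a library's peaks, the age differences of Pcdhgb6 and Pcdhgc3 were 4.23 and 1.74 percentile points, above 0 where the log2 values were below it. With the class of the shortest peak as a covariate, the IOP effect at 18mo minus that at 3mo came to 0.02 for Pcdhac1 and 0.03 for Pcdhgc3. When each library was left out, it ranged from −0.19 to 0.03 for Pcdhac1 (above 0 at 0.03, 0.03 and 0.01) and from −0.13 to 0.05 for Pcdhgc3 (above 0 at 0.01, 0.05, 0.01 and 0.04). These values were near 0 and had passed no test; the cause was not tested. Of the comparisons of a whole list or count, 198 kept their direction and side of the threshold, as did 434 of those of single promoters. The 198 include comparisons in which no member could be tested.

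With the replicate number as a block, 0 members passed in the level tests of IOP at 3mo, at 18mo and between ages. In the tests of calls with this block, no member promoter or region could reach a p-value under 0.05. A block of the number within an age could not be fitted for the age comparison. A block joining same-numbered 3mo and 18mo controls, added after seeing the data, gave 1 member past the level test for age (Pcdhac2, 0.42, adjusted p = 0.0459, limma), 0 past the tests of calls, and p = 0.0312 for Pcdhga8 (exact). Same-numbered controls of the ages correlated at −0.326, −0.565 and −0.225 (contralateral) and at 0.0481, 0.0215 and 0.0905 (untreated). The contralateral values again followed the class of the shortest peak, so that they cannot tell whether the numbers pair libraries. The main test took no pairs.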
